A study of Mus musculus with 18 samples.

Results

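The Kruppel-like factors are transcription factors that bind GC-rich and CACCC sequences in promoters through zinc fingers near the end of the protein. Their transcripts were examined here for 8 members, namely Klf2, Klf4, Klf6, Klf9, Klf10, Klf11, Klf13 and Klf15. These members are known to respond to hormones, to blood flow or to nutrients. They were chosen by symbol, each matched 1 of the 34932 genes in the deposited table, and all 8 passed the filter on low counts in each of the 9 comparisons below. The tissues came from chronically restrained mice, held immobile as a stressor, and from control mice. Liver, brain and testis each had 3 stress and 3 control libraries, which the submitters call biological replicates, 18 in all. The labels state no strain, age, sex or length of restraint, and the extraction text speaks of hippocampus where the labels say brain.

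Family members differ in what induces them. Klf2 and Klf4 are induced by laminar blood flow in endothelium and restrain its inflammatory genes, and Klf6 is an early response gene of injured liver. Klf10 and Klf11 are induced by transforming growth factor beta, and Klf10 is also controlled by the circadian clock. Klf9 is a direct target of glucocorticoid and thyroid hormone receptors, Klf13 is its close relative, and Klf15 is raised by fasting and glucocorticoids and drives amino acid breakdown in liver. Several of the family, Klf2, Klf4, Klf6 and Klf10 among them, also respond within the hour to growth factors, as other immediate early genes do.

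Library totals ranged from 27.85 to 36.5 megacounts. Marker genes matched the tissue labels: hepatocyte markers summed to at least 70000 CPM (counts scaled to a common library size) in liver and at most 3.729 elsewhere. Neuron markers reached 9157 CPM or more in each brain library, and those of germ cells 12930 CPM or more in each testis library. Of 8 hippocampal markers, all 8 were detected in each brain library and summed to between 402.5 and 594.3 CPM. They also summed to 171.2 to 249.5 CPM in stress livers and 179.3 to 270.5 CPM in control livers. Their sum alone thus does not mark the region. The column read as stress brain replicate 3 carries a stress code, while that sample's description carries a control prefix. It was kept in the stress group as its title says. In bulk tissue, fewer cells of a type and less RNA per cell cannot be told apart.

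In the liver, 5 members were 2.04-fold to 2.24-fold lower in stress on average and 2 were higher, but only Klf11 passed the test over all genes. The comparison asked which transcripts of this organ differ between stressed and control mice. Of the 8 members, 0 were higher and 1 was lower at an adjusted p under 0.05 (edgeR quasi-likelihood test, Benjamini-Hochberg adjustment). Over all 14253 genes tested, 1.63% were called, 0.982% as higher and 0.645% as lower. Klf2 had an unadjusted p of 0.0275 in edgeR and rank 1747 among these genes. At least that many genes thus had an unadjusted p under 0.05. Stress and control libraries did not overlap for 6 of the 8 members, against 23% of all genes tested. The members' median log2 fold change, stress over control, was -1.06, beside -0.01 for all genes tested.

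Klf11, a factor linked to insulin gene control, had 8.27, 11.3 and 6.74 CPM in stress livers 1, 2 and 3. Control livers had 18.7, 20.3 and 17.4 CPM (CPM of single genes here and below with TMM factors, sums over lists without them). Every stress library lay below every control library. Klf11 fell by 1.10 ± 0.20 on the log2 scale (SE; 95% interval -1.54 to -0.66; edgeR adjusted p = 0.0346), a 2.14-fold difference. The call was lost without stress replicate 1, stress replicate 3, control replicate 2 or control replicate 3 (adjusted p = 0.113, 0.125, 0.101 and 0.0602), and on the log2(TPM + 1) scale in limma (adjusted p = 0.0554).

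Klf10 had 23.6, 68.2 and 39.3 CPM in stress livers 1, 2 and 3, against 78.0, 91.3 and 124 CPM in control livers. The groups did not overlap, and stress replicate 2 was the nearest to the controls. Its log2 fold change of -1.16 ± 0.33 (SE) did not pass (edgeR adjusted p = 0.117). Without stress replicate 2 it was -1.64 and passed (adjusted p = 0.0236). Immediate early genes, a list of 20, showed a like order of libraries: their median relative to the control mean was -3.66, -0.60 and -3.64 on the log2(CPM + 1) scale in stress livers 1, 2 and 3, against -0.25, 0.15 and 0.19 in control livers. Of the 18 tested there, 0 passed as higher and 3 as lower, the median difference being -2.16 (log2). Fosb, an AP-1 subunit gene, fell by 3.50, and Myc and Nr4a3 fell by 2.74 and 4.78 on that scale (edgeR adjusted p = 0.0116, 0.047 and 0.0498). Nr4a3 had only 0.0641, 0.0604 and 0.393 CPM in stress livers, against 0.553, 7.56 and 6.18 CPM in control livers. Its fall thus rests on very low levels in stress livers. Stress replicate 2 was also the highest stress liver for Klf2, Klf9, Klf11 and Klf13, but not for Klf4, Klf6 and Klf15. The part of the immediate early response in the values of Klf10 and the other members was not tested.

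The differences of the flow-responsive members and Klf6 leaned on 1 control library, that of Klf4 less than those of Klf2 and Klf6. Klf6 had 5.64, 5.26 and 5.43 CPM in stress livers, against 6.84, 7.85 and 21.7 CPM in control livers 1, 2 and 3. Its groups did not overlap, yet 2 of the 3 controls sat close to the stress values. Klf4, better known as a pluripotency factor, had 0.897, 0.967 and 1.15 CPM in stress livers, against 1.78, 1.52 and 3.48 CPM in control livers 1, 2 and 3. Its groups did not overlap, but these levels rest on 28 to 35 counts per stress library and 51 to 112 per control library. Klf2 had 4.84, 6.53 and 3.796 CPM in stress livers, against 6.32, 6.78 and 17.9 CPM in control livers 1, 2 and 3, and its groups overlapped. Control replicate 3 was the highest library for each of these genes.

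Log2 fold changes in liver were -1.03 ± 0.40 for Klf2, -1.17 ± 0.39 for Klf4 and -1.16 ± 0.39 for Klf6 (SE), and none passed (edgeR adjusted p = 0.225, 0.165 and 0.174). Without control replicate 3 they were -0.37, -0.71 and -0.43. Of the 11 alternatives run for each gene, Klf6 passed under 2, Klf2 under 1 and Klf4 under 0, none by leaving out 1 library. The 16 endothelial markers summed to between 94.11 and 152 CPM in stress livers and between 124.8 and 187 CPM in control livers, and control replicate 3, at 163 CPM, lay inside the control range. None of the 16 was at 0 in a liver library. Of the 16, 12 were negative and 4 positive, around a median of -0.41 (log2). In edgeR 0 of 16 passed and 5 had unadjusted p below 0.05. The 12 macrophage markers summed to between 173.2 and 210.8 CPM in stress livers and between 83.48 and 99.17 CPM in control livers, and none of them was at 0. Of these, 7 passed as higher and 0 as lower, and their median difference was 1.18 (log2), among them Cd163, C1qc, C1qa and Csf1r at 1.75, 1.14, 1.23 and 1.11. The part of either cell type in the Klf2, Klf4 and Klf6 values was not tested.

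**Figure D1:**
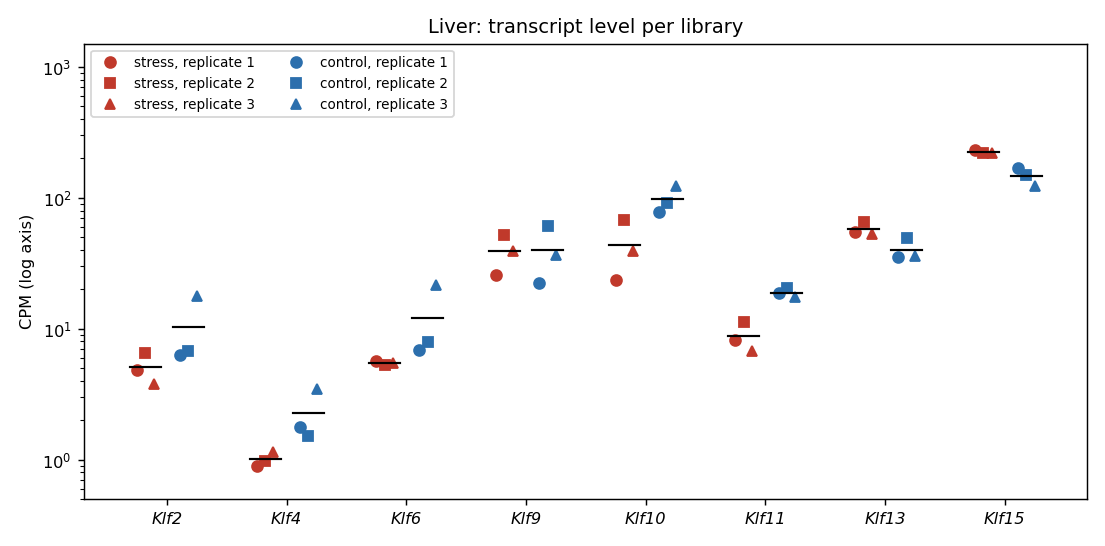
Transcript level of the 8 members in the 6 liver libraries, in CPM on a log axis, with stress libraries left of control libraries and bars at the group means. Klf11 and Klf10 were lower in each stress library than in each control library, control replicate 3 stood above the other controls for Klf2, Klf4 and Klf6, and the Klf15 stress libraries sat close together above the controls.

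Klf15, the member with the highest TPM in liver, went the other way. It had 233, 219 and 222 CPM in stress livers, against 169, 150 and 124 CPM in control livers, so that no libraries overlapped. The stress livers varied by 3.36% (coefficient of variation), against 15.2% in the controls. Its log2 fold change of 0.60 ± 0.14 (SE; 95% interval 0.29 to 0.92), a 1.52-fold difference, missed the threshold (edgeR adjusted p = 0.0662). It passed in DESeq2 (adjusted p = 0.00352), on the log2(TPM + 1) scale in limma (0.0499) and without control replicate 1 (0.0383). Klf13, known for control of the chemokine gene Ccl5 in T cells, had 55.0, 65.3 and 53.0 CPM in stress livers, against 35.4, 49.3 and 36.1 CPM in control livers. Its groups did not overlap either, and the log2 fold change of 0.52 ± 0.16 (SE) did not pass (edgeR adjusted p = 0.136). It passed under 1 of its 11 alternatives.

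Klf9, the textbook glucocorticoid target of the family, showed no such separation. It had 25.7, 52.5 and 39.1 CPM in stress livers, against 22.5, 61.0 and 36.5 CPM in control livers. Replicates of 1 group differed more than the groups did. The log2 fold change was -0.03 with a 95% interval of -0.81 to 0.74 (edgeR adjusted p = 0.976), which leaves room for a change of up to about that size in either direction. Of 12 other glucocorticoid-induced genes in liver, 4 passed as higher and 0 as lower, namely Angptl4, Zbtb16, Tsc22d3 and Fkbp5 with log2 fold changes of 2.36, 3.46, 1.75 and 1.67 (edgeR adjusted p = 0.00207, 0.00351, 0.00722 and 0.0108). The median of the 12 was 0.22, with 7 positive and 5 negative, and 7 had unadjusted p below 0.05. Mt2, a metallothionein gene, and Sgk1, a kinase gene, were lower without overlap at -2.82 and -0.73 and did not pass (edgeR adjusted p = 0.078 and 0.0747). Pdk4, also on this list and given below, was likewise lower without overlap and did not pass. All of these were named after their values were seen. The list was measured in the same 6 libraries as Klf9.

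Genes linked to the members gave mixed values in liver. Of 10 genes tied to Klf15 in metabolism, 1 passed as higher and 0 as lower, around a median of -0.03 (log2). It was Pck1, the key enzyme of gluconeogenesis, which rose by 1.19 ± 0.16 (SE, edgeR adjusted p = 0.0119). G6pc, which releases free glucose, had -0.98, and the pyruvate dehydrogenase kinase gene Pdk4 had -1.89 (adjusted p = 0.0519 and 0.08). Pdk4 and Tat are also among the glucocorticoid-induced genes above, so these lists are not independent. Of 7 endothelial targets of KLF2 and KLF4 tested in liver, 0 passed and 4 had an unadjusted p under 0.05 in edgeR. Vcam1, a leukocyte adhesion gene, and Thbd, an anticoagulant receptor gene, had log2 fold changes of 0.95 and 0.88 (adjusted p = 0.195 and 0.239). Of 11 genes of transforming growth factor beta signalling, 0 passed, 0 had an unadjusted p under 0.05 in edgeR, and the median was -0.19.

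Of 16 clock genes tested in liver, 1 passed as higher and 0 as lower, with a median of 0.05. It was Per2, a period gene, which rose by 1.22 ± 0.15 (SE, edgeR adjusted p = 0.00827). Dbp, a clock output factor, had a log2 fold change of -0.48 (adjusted p = 0.168). Of the other Klf genes, 5 of 9 were tested in liver and 0 passed, 1 of them with an unadjusted p under 0.05 in edgeR and a median of -0.19. Klf1, the erythroid member, had 3.59 ± 0.702 CPM in stress livers and 6.25 ± 0.520 CPM in control livers (SD, n = 3 each), which is -0.80 as a log2 fold change (edgeR adjusted p = 0.0955). Klf16 and Klf7 had -0.19 and -0.38. Of 5 related Sp factors tested, 0 passed and 1 had an unadjusted p under 0.05 in edgeR, with a median of -0.25.

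Promoter sequences were available for 7 of the 8 members (RefSeq, build GRCm38.p6, the 250 bases before and 50 after the start). Klf10 was not among them. Shown are the 4 windows that hold the E-box CACGTG, the sequence bound by clock and Myc-type factors, since Klf15 and Klf11 had the smallest p-values in liver. This choice was made after the values were seen. Capitals mark the E-box, which reads the same on both strands.
Klf15, chr6:90462326-90462625, plus strand: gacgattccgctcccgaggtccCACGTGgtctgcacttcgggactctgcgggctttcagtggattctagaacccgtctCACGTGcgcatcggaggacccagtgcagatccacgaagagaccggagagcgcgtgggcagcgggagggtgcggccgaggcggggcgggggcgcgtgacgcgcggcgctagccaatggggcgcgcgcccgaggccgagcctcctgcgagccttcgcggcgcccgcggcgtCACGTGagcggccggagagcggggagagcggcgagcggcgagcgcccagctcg
Klf11, chr12:24651121-24651420, plus strand: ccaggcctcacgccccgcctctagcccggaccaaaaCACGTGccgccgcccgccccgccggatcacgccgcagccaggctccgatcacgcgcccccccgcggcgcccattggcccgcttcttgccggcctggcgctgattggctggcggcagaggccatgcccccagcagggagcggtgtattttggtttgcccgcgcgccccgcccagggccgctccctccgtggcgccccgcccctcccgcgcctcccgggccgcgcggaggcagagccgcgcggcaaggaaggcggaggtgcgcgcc
Klf4, chr4:55532426-55532725, minus strand: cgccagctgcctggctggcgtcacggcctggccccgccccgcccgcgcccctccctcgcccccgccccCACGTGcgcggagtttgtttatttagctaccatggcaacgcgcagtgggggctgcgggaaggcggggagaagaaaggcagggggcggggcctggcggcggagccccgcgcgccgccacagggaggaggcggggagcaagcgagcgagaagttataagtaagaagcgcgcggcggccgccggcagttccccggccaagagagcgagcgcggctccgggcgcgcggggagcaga
Klf6, chr13:5861239-5861538, plus strand: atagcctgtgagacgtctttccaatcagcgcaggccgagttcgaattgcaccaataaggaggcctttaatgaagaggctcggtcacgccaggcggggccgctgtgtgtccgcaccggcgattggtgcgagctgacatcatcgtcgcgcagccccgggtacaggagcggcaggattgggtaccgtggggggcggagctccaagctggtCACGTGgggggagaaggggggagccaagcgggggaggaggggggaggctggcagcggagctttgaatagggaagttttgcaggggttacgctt

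The E-box was found in 4 of the 7 windows, 3 times in that of Klf15 and once in those of Klf11, Klf4 and Klf6, against 7.15% of all 32851 promoter windows. Klf15 and Klf11, one higher and one lower in stress livers, both carry it. The GC box GGGCGG, a Kruppel-like and Sp factor sequence, was found in 6 of 7 windows on either strand, against 35.7% of all windows, and CACCC in 4 of 7, against 57.5%. The short form TGACG of the cAMP response element was found in 5 of 7, against 20.8%, and in Klf15 1 match shares bases with an E-box. TGANTCA, the AP-1 sequence, was found only in the Klf9 window, against 7.81%. The full element TGACGTCA, the CArG box of immediate early genes, the steroid receptor palindrome ACANNNTGT and TATAAA were in none of the 7, against 1.79%, 1.63%, 6.85% and 13.6%. These windows held 63.0% to 77.7% G and C, against a median of 52.7% over all windows, so GC-rich letters are common in them. A match describes letters in the window and no more.

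In the brain, the members were closer to their controls. Of the 8 members, 0 passed in edgeR, 3 had an unadjusted p under 0.05, and DESeq2 and limma also called 0. Over all 17668 genes, 0.00566% were called, all as higher. Klf15 had an unadjusted p of 0.0466 in edgeR and rank 1232 among these genes. At least that many genes thus had an unadjusted p under 0.05. Libraries did not overlap for 1 of the 8, against 13.8% of all genes tested. Klf13 had 186, 179 and 197 CPM in stress brains, against 169, 162 and 162 CPM in control brains. It was the member without overlap, and its log2 fold change of 0.19 ± 0.07 (SE; 95% interval 0.03 to 0.34) did not pass (edgeR adjusted p = 0.613, and 0.344 with replicate number as a block). Klf13 is also the member whose locus overlaps other genes on the opposite strand, Gm27252 and E030018B13Rik. No source used here states whether counting used strand, so their reads cannot be told apart from those of Klf13. Where counted on their own, they reached at most 310 counts in a library. Klf13 had 5254 to 6329 counts in brain libraries and 100 to 261 in testis libraries. Klf9 likewise overlaps the microRNA gene Mir1192 on its own strand.

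Klf15 had 30.9, 26.3 and 23.9 CPM in stress brains, against 22.3, 24.0 and 19.2 CPM in control brains. The highest control lay just above the lowest stress library. Its log2 fold change was 0.31 ± 0.13 (SE, edgeR adjusted p = 0.662). Klf11 had 7.40, 4.86 and 5.76 CPM in stress brains, against 11.6, 11.5 and 6.21 CPM in control brains 1, 2 and 3, with a log2 fold change of -0.70 ± 0.27 (adjusted p = 0.651). Control replicate 3 lay within the stress range. All 8 members had the sign in brain that they had in liver, also Klf9 with -0.12 and -0.03, and none of the differences passed in brain. Hippocampal markers differed between the same libraries by their median. Relative to the control mean it was 0.59, 0.44 and 0.20 in stress brains 1, 2 and 3 on the log2(CPM + 1) scale. Control brains had 0.03, -0.11 and -0.07. The groups did not overlap on this median, and 7 of the 8 markers were positive. In edgeR 0 of the markers passed and 2 had unadjusted p below 0.05. Their summed CPM overlapped, with 402.5, 594.3 and 506.6 in stress brains 1, 2 and 3 and 409.2, 446.3 and 512.5 in control brains. Their part in the brain values of Klf11, Klf13 and Klf15 was not tested.

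The remaining members had log2 fold changes between -0.18 and -0.06 in brain. Klf9 had 182, 140 and 164 CPM in stress brains, against 178, 160 and 190 CPM in control brains (log2 fold change -0.12, 95% interval -0.38 to 0.14, edgeR adjusted p = 0.838). Klf10 had 37.6, 32.9 and 44.3 CPM in stress brains, against 29.0, 36.2 and 54.4 CPM in control brains. Klf6, Klf2 and Klf4 likewise overlapped between groups, with log2 fold changes of -0.18, -0.18 and -0.07 (adjusted p = 0.816, 0.89 and 0.97). Immediate early genes had a median log2 fold change of -0.77 in brain, where 0 of 20 passed in edgeR and 10 had unadjusted p below 0.05. Glucocorticoid-induced genes had a median of 0.13, where 0 of 11 passed in edgeR and 4 had unadjusted p below 0.05, among them Fkbp5 with 0.86 (adjusted p = 0.385). The metabolic genes tied to Klf15 had a median of 0.28 in brain, where 0 of 6 passed in edgeR and 2 had unadjusted p below 0.05. Other Klf genes had a median of 0.00, where 0 of 7 passed and 0 had unadjusted p below 0.05.

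In the testis, no member separated. Of the 8, 0 passed in edgeR, DESeq2 and limma, 0 had an unadjusted p under 0.05 in edgeR, and all 8 overlapped, while 20.9% of all genes tested did not. Over all 19915 genes, 0.0201% were called, 0.00502% as higher and 0.0151% as lower. Klf4, which is known in this tissue from round spermatids and Sertoli cells, had 227, 208 and 200.2 CPM in stress testes, against 229, 207 and 222 CPM in control testes. Its log2 fold change of -0.05 had a 95% interval of -0.25 to 0.15 (edgeR adjusted p = 0.807), the narrowest interval of the 8 in this tissue. Klf2 had 17.1, 31.3 and 16.5 CPM in stress testes 1, 2 and 3, against 12.6, 17.5 and 20.2 CPM in control testes. Stress replicate 2 was its highest library. Without it the log2 fold change of 0.37 became -0.003 (adjusted p = 0.547 and 0.998).

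Klf13 was likewise highest in stress testis replicate 2, with 8.59 CPM, against 3.50 and 4.68 CPM in the other stress testes and 3.61, 4.92 and 4.12 CPM in control testes. Klf6, Klf9, Klf10, Klf11 and Klf15 had log2 fold changes between -0.15 and 0.11 in testis (edgeR adjusted p of 0.628 to 0.98). Klf1, which is no member, had 3.18 ± 2.40 CPM in stress testes and 0.501 ± 0.289 CPM in control testes (SD, n = 3 each; log2 fold change 2.66, adjusted p = 0.422). Of 9 macrophage markers tested in testis, 0 passed in edgeR and 3 had unadjusted p below 0.05. Several of them were highest in stress testis replicate 2, as Klf2 and Klf13 were. C1qb, named after its values were seen, had 8.61, 22.04 and 8.11 CPM in stress testes 1, 2 and 3, against 6.64, 7.12 and 7.26 CPM in control testes. Germ cell markers summed to between 14680 and 16830 CPM in stress testes and between 12930 and 13360 CPM in control testes, without overlap. With TMM factors, their median log2(CPM + 1) relative to the control mean did overlap. It was 0.104, 0.165 and 0.0928 in stress testes 1, 2 and 3, against 0.0949, -0.0496 and -0.0447 in control testes. Of these 8 markers 6 were positive, 0 passed in edgeR and 3 had unadjusted p below 0.05. The part of either cell type in the testis values of the members was not tested.

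**Figure D2:**
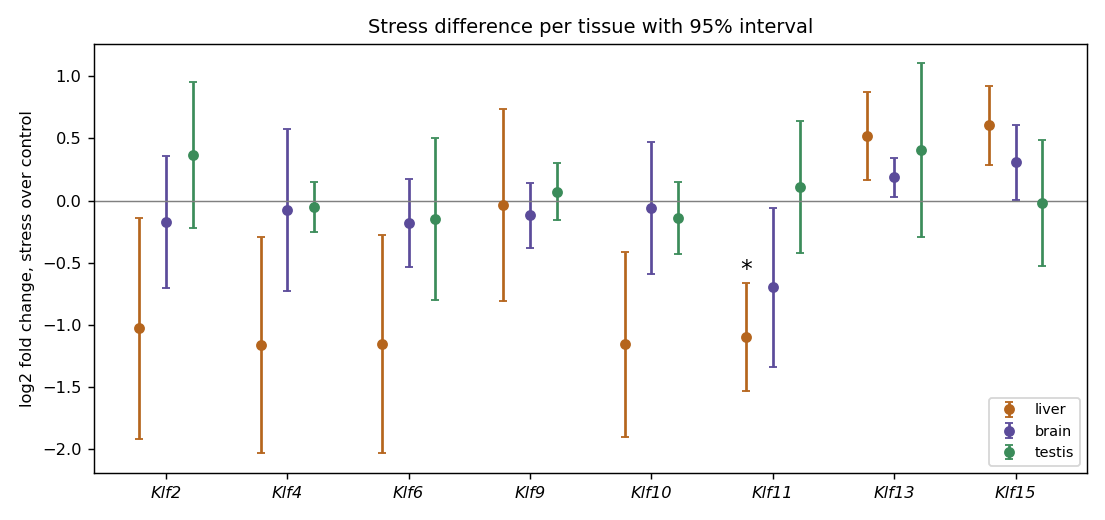
Log2 fold change of each member, stress over control, in liver, brain and testis, with 95% intervals from the fitted model and a star for an adjusted p under 0.05. In liver, Klf2, Klf4, Klf6, Klf10 and Klf11 lay below 0 and Klf13 and Klf15 above it, and Klf11 alone carries a star.

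Whether the stress difference itself differed between tissues was tested with an interaction term for each pair of tissues, 12 libraries at a time. No member passed for liver minus brain, where 2 had an unadjusted p under 0.05 in edgeR and 0.195% of 18962 genes were called (0.1% as higher, 0.0949% as lower). Klf4, at an unadjusted p of 0.0429 in edgeR, held rank 1986 among those genes. The largest values were -1.10 ± 0.46 for Klf10 and -1.09 ± 0.48 for Klf4 (SE, edgeR adjusted p = 0.375 and 0.409). None passed for liver minus testis, where 5 had an unadjusted p under 0.05 and 0.154% of 21392 genes were called (0.0748% as higher, 0.0795% as lower). Klf15, at an unadjusted p of 0.047 in edgeR, held rank 2834 among those genes. There Klf11 had -1.25 ± 0.32, Klf4 had -1.15 ± 0.32 and Klf2 had -1.42 ± 0.53 (SE, edgeR adjusted p = 0.123, 0.147 and 0.249), while DESeq2 called 2, Klf4 and Klf11 (adjusted p = 0.0357 and 0.0137). For brain minus testis 0 passed, 0 had an unadjusted p under 0.05 and 0% of 22391 genes were called. The fall of Klf11 in liver is thus not shown by edgeR to differ from its values in brain or testis.

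Levels across the tissues spanned a wide range. They are given in TPM, which is per length and so can be set side by side between genes. Among control libraries, Klf15 led in liver with 112 ± 12.6 TPM, Klf9 led in brain with 180.2 ± 12.2 TPM, and Klf4 led in testis with 179 ± 8.81 TPM (SD, n = 3 each). The lowest member was Klf4 in liver with 1.44 ± 0.738 TPM, Klf11 in brain with 7.75 ± 2.54 TPM, and Klf13 in testis with 1.39 ± 0.223 TPM.

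The order of tissues depended on the scale for some members. TPM and the TMM-scaled counts of the edgeR test centre the tissues differently: for control liver over control brain the median log2 fold change of all genes was -1.48 on the TPM scale and -0.33 on the count scale. For control testis over control liver it was 1.13 and 0.93, and for control testis over control brain -0.39 and 0.20. Most genes differ between tissues, so the members are read against a high background. For control liver over control brain 7 of 8 members were called, 3 higher and 4 lower, against 80.1% of all genes, 34.4% higher and 45.6% lower. For control testis over control liver 6 were called, 1 higher and 5 lower, against 88.5% of all genes, 54% higher and 34.5% lower. For control testis over control brain 7 were called, 1 higher and 6 lower, against 88.1% of all genes, 47% higher and 41.2% lower. Libraries did not overlap for 6, 5 and 7 members in these comparisons, against 83.5%, 89.7% and 89.9% of all genes. In both testis comparisons a smaller share of the members than of all genes was called higher. Replicate numbers, which mark the same sample code in each tissue, changed no member call when used as a block.

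Klf15 kept 1 order on both scales, liver, then brain, then testis. It had 171 ± 2.95 TPM in stress livers and 112 ± 12.6 TPM in control livers, 36.2 ± 5.07 TPM in stress brains and 28.9 ± 3.74 TPM in control brains, and 3.93 ± 0.757 TPM in stress testes and 4.25 ± 0.926 TPM in control testes. Neighbouring tissues differed beyond their spread. Control liver over control brain was 3.79 ± 0.17 on the count scale and 1.92 on the TPM scale (SE; edgeR adjusted p = 1.35e-07), and control testis over control brain was -2.05 ± 0.18 and -2.52 (adjusted p = 4.59e-06).

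Klf13 also kept its order, brain, then liver, then testis. It had 84.1 ± 2.45 TPM in stress brains and 73.0 ± 2.47 TPM in control brains, 14.8 ± 1.78 TPM in stress livers and 10.3 ± 1.97 TPM in control livers, and 1.72 ± 0.743 TPM in stress testes and 1.39 ± 0.223 TPM in control testes. Control testis over control brain was -5.00 ± 0.12 on the count scale (SE, edgeR adjusted p = 1.27e-09), with -4.95 on the TPM scale. Control liver over control brain was -0.999 ± 0.15 (adjusted p = 0.000289), with -2.73 on the TPM scale. Control testis over control liver was -4.02 ± 0.20 (adjusted p = 4.9e-08).

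Klf4 had the reverse of the Klf15 order, testis, then brain, then liver, again on both scales. It had 162 ± 9.86 TPM in stress testes and 179 ± 8.81 TPM in control testes, and 18.7 ± 4.73 TPM in stress brains and 19.4 ± 6.45 TPM in control brains. In liver it had 0.636 ± 0.0911 TPM under stress and 1.44 ± 0.738 TPM in controls. Control testis over control brain was 3.92 ± 0.23 on the count scale (SE, edgeR adjusted p = 3.07e-07), with 3.20 on the TPM scale. Control liver over control brain was -1.94 ± 0.38 (adjusted p = 0.00147), with -3.05 on the TPM scale.

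Klf9 and Klf6 were highest in brain on both scales, while their order between testis and liver did not hold. Klf9 had 168 ± 20.7 TPM in stress brains and 180.2 ± 12.2 TPM in control brains, 38.9 ± 2.40 TPM in stress testes and 39.5 ± 0.434 TPM in control testes, and 23.2 ± 8.19 TPM in stress livers and 23.6 ± 11.5 TPM in control livers. Control testis over control liver was -0.39 for Klf9 on the count scale and 0.83 on the TPM scale (adjusted p = 0.232 in edgeR and 0.04 in limma). Klf6 had 40.0 ± 4.01 TPM in stress brains and 44.9 ± 9.76 TPM in control brains, 4.46 ± 1.48 TPM in stress testes and 5.30 ± 1.74 TPM in control testes, and 2.49 ± 0.0569 TPM in stress livers and 5.63 ± 4.08 TPM in control livers. Control testis over control liver for Klf6 was -1.18 on the count scale and 0.06 on the TPM scale (adjusted p = 0.0233 in edgeR and 0.899 in limma). Its liver control values include the high replicate 3: without it the count-scale value was -0.50 (edgeR adjusted p = 0.0965). The call of Klf6 also failed without control testis replicate 1 or 2 (0.136 and 0.0699). Its call between liver and brain failed without control liver replicate 1 or 2 or control brain replicate 1 or 2 (0.079, 0.0881, 0.0692 and 0.0569).

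Klf10 and Klf11 were lowest in testis on both scales. Klf10 had 8.08 ± 0.960 TPM in stress testes and 9.48 ± 0.457 TPM in control testes, 42.5 ± 5.54 TPM in stress brains and 43.6 ± 13.6 TPM in control brains, and 27.8 ± 14.6 TPM in stress livers and 62.0 ± 17.5 TPM in control livers. Klf11 had 2.08 ± 0.541 TPM in stress testes and 2.04 ± 0.401 TPM in control testes, 4.80 ± 1.02 TPM in stress brains and 7.75 ± 2.54 TPM in control brains, and 4.0 ± 1.07 TPM in stress livers and 8.53 ± 0.552 TPM in control livers. Control liver over control brain was 2.32 ± 0.26 for Klf10 and 1.97 ± 0.25 for Klf11 on the count scale (SE, edgeR adjusted p = 5.01e-05 and 9.46e-05). On the TPM scale it was 0.50 and 0.17 and did not pass (limma adjusted p = 0.103 and 0.498). The order of liver and brain for these genes thus rests on the scaling.

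Klf2 was the member with the smallest differences between control tissues on the count scale. It had 32.8 ± 9.03 TPM in stress brains and 36.5 ± 8.15 TPM in control brains, 27.1 ± 9.08 TPM in stress testes and 22.6 ± 5.53 TPM in control testes, and 5.28 ± 1.46 TPM in stress livers and 10.9 ± 7.39 TPM in control livers. On the count scale no pair of control tissues passed, with log2 differences of 0.07, -0.05 and 0.02 for liver over brain, testis over liver and testis over brain (edgeR adjusted p = 0.88, 0.902 and 0.945). On the TPM scale all did, with -1.80, 1.12 and -0.67 (limma adjusted p = 0.00285, 0.0297 and 0.0164).

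**Figure D3:**
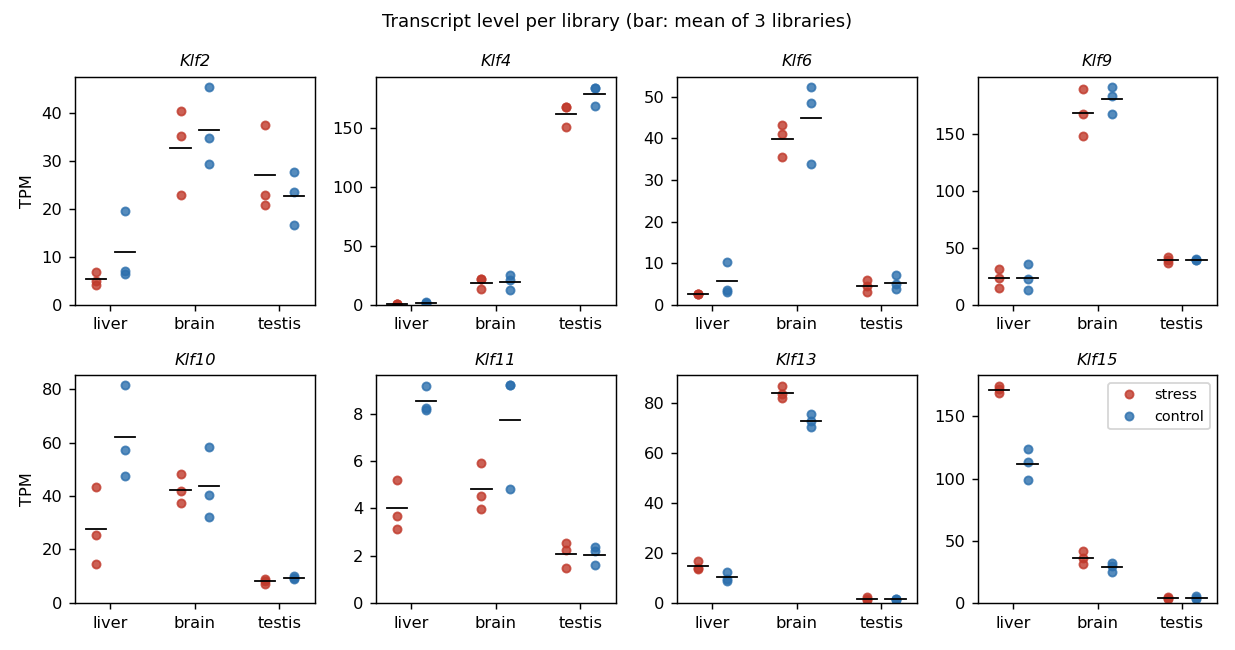
TPM of each member in every library of the 3 tissues, stress left of control, with bars at the group means and a linear axis from 0. Klf4 stood out in testis, Klf9, Klf13 and Klf6 in brain, and Klf15 in liver.

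**Figure D4:**
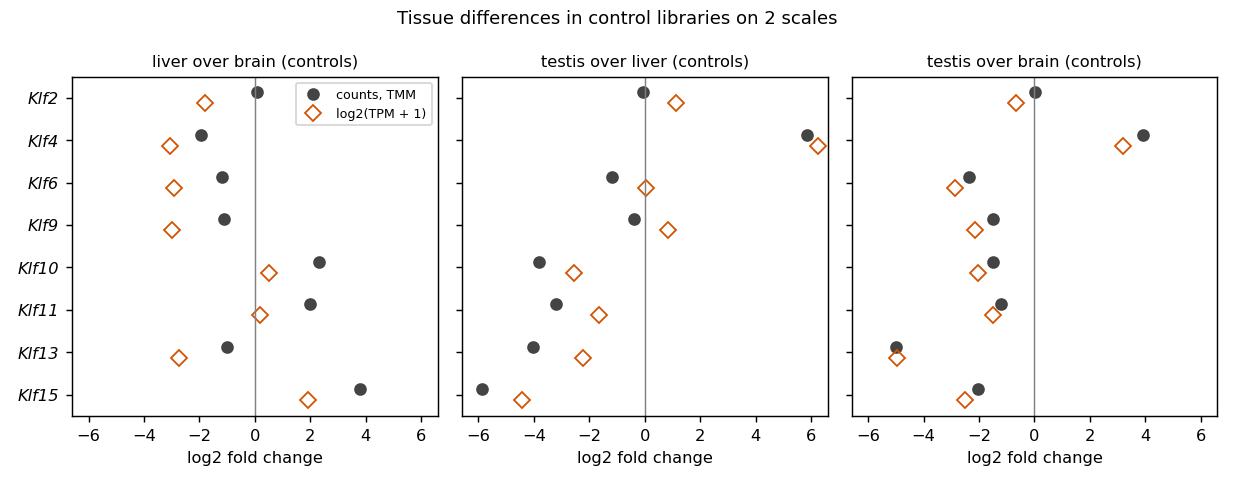
Log2 fold change between control tissues for each member, from counts with TMM factors (filled) and from log2(TPM + 1) (open). Liver over brain moved most between the scales, with Klf2 at 0.07 and -1.80, and Klf10 at 2.32 and 0.50.

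Among 11477 other protein-coding genes tested in all 3 tissues, those most like each member were ranked by Pearson's r of log2 CPM over the 18 libraries, after subtracting each tissue's mean. The libraries of 1 tissue share that mean and their normalization, and high r is common when so many genes are ranked, so these are descriptions. Klf10 was closest to Acly, the enzyme that makes cytosolic acetyl-CoA (r = 0.953, Spearman's rho = 0.891), and to Srf, the serum response factor gene that drives immediate early genes (r = 0.927, rho = 0.818). Klf11 had Rassf3, Fosb and Dapk2 at the top (r = 0.865, 0.858 and 0.853), which ranked 13, 55 and 170 when the mean of each tissue and treatment was subtracted instead. Klf2 had Adamts1, Itga6 and Pygm (r = 0.906, 0.885 and 0.872). Klf4 was closest to Trmt9b, Isg20 and Dynlt1b (r = 0.902, 0.836 and 0.819), and Klf6 to Csad, Sqstm1 and Rtn4rl1 (r = 0.867, 0.857 and 0.855). Klf9 was closest to Igfbp6, Lzic and Ikzf4 (r = 0.882, 0.861 and 0.859), and Klf13 to Mgp, Lrp1 and Rab7 (r = 0.902, 0.897 and 0.856). Klf15 had Arrb2, Tomm40l and Adcy7 (r = 0.847, 0.818 and 0.818), which ranked 178, 143 and 442 under that other centring. The other genes named ranked between 1 and 34 under it.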

How the data were processed

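Mouse liver, brain and testis RNA was sequenced after a stranded library preparation, per the labels' protocols. The build is mm39, per the submitters' processing notes. No aligner, counting program, strand setting or annotation was given in the sources used here. The deposited table holds raw counts per gene, TPM values and FPKM values made by the authors, per the file headers. FPKM was not used. Symbols came from a reference table of Ensembl identifiers (34362 genes named, 570 without a symbol). Gene types and overlapping loci came from GENCODE M21, on the older build GRCm38, so no gene positions are given for the counts.

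Counts were tested in edgeR 4.0.16 in R 4.3.3 (TMM, default filter on low counts, quasi-likelihood F test) over all genes, with Benjamini-Hochberg adjustment and a threshold of 0.05. Each tissue's stress and control libraries were compared over 6 libraries, tissue differences of the stress effect over 12, and control tissues in pairs over 6. SE is the size of the log2 fold change divided by the root of F. limma 3.58.1 on log2(TPM + 1) and DESeq2 1.42.0 were alternatives. Lists are described by counts and medians, with no list test. The members and lists were chosen with earlier results of these data known. All 8 members were named in every comparison, as were up to 4 genes of each list with the smallest p, up to 3 other Klf or Sp genes, and up to 3 genes per member by likeness. Some genes that this rule names are not reported here.

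The procedure was tested on simulated counts first. Of simulated 2-fold changes, it recovered 39.4% in liver, 55.7% in brain and 55.2% in testis. The tests of tissue differences in the stress effect recovered 16.8% to 26.5%. In liver 14 of 137 calls were false.

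Replicates differed by more than counting error (chi-square per degree of freedom of 4.426 to 103.9). Deviations of same-numbered stress and control libraries correlated across genes at 0.305, 0.167 and 0.439 in brain, so brain values with the replicate number as a block were computed. No member call changed with it. The pairing was read from these libraries, not from the labels. Between tissues the sample codes recur.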

Additional observations from a re-analysis of the deposited data

How the results depend on the processing

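Calls over all genes depended on the method. With DESeq2 they were 856 in liver, 137 in brain and 61 in testis, against 232, 1 and 4 in edgeR, and 568, 717 and 95 for liver minus brain, liver minus testis and brain minus testis, against 37, 33 and 0. Without the filter on low counts they were 858, 2, 25, 123, 134 and 8 in the same order. On log2(TPM + 1) in limma they were 143 in liver, 2 in testis, 72 for liver minus testis and 4 for brain minus testis. With replicate number as a block they were 475 in liver and 22 in brain. For tissue differences in the stress effect, the block was treatment together with replicate number. It gave 2 for liver minus brain and 16 for liver minus testis. Leaving out 1 library gave 31 to 291 in liver, 0 to 1 in brain, 0 to 21 in testis, 5 to 112, 0 to 129 and 0 to 3. Control tissue counts stayed within 1.5 times under every alternative run.

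Members past the threshold in liver numbered 1, but 3 with DESeq2, 6 without the filter, 3 with the replicate block and 0 to 2 leaving out 1 library. The block added Klf10 and Klf15 (adjusted p = 0.0319 and 0.0487). Deviations of same-numbered liver libraries correlated at 0.187, 0.0533 and -0.000873, and those of differing numbers at -0.125 to 0.0883. These values do not settle whether the numbers pair liver libraries. In testis the same-numbered libraries had 0.0769, 0.0682 and -0.088. For liver minus testis 2 members passed with DESeq2, against 0, and 0 to 1 leaving out 1 library, the 1 being Klf10 without stress liver replicate 2.

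Of 800 member values under alternatives, 50 changed sign, 1 of them for a member that had passed (Klf6, control testis over control liver, 0.056 on TPM). On TPM the others were Klf9 in liver (0.028), testis (-0.024), liver minus testis (0.052) and control testis over control liver (0.83), and Klf2 for liver over brain (-1.80), testis over liver (1.12) and testis over brain (-0.67). With the block, Klf9 in liver was 0.023, Klf2 for liver over brain -0.081 and for testis over liver 0.073. Klf2 for testis over liver was 0.087 with DESeq2 size factors, 0.085 with DESeq2 and 0.014 without the filter. The cause was not tested.

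Leaving out 1 library, signs changed within these ranges. Klf9 in liver was -0.32 to 0.41. In brain, Klf2 was -0.35 to 0.020, Klf4 -0.32 to 0.12 and Klf10 -0.24 to 0.23. In testis, Klf2 was -0.0034 to 0.53, Klf6 -0.47 to 0.11, Klf9 -0.022 to 0.13, Klf11 -0.035 to 0.28, Klf13 -0.044 to 0.65 and Klf15 -0.21 to 0.15. Klf9 was -0.24 to 0.48 for liver minus brain and -0.43 to 0.30 for liver minus testis, where Klf13 was -0.13 to 0.54. Klf2 was -0.55 to 0.33 for liver over brain, -0.29 to 0.57 for testis over liver and -0.13 to 0.19 for testis over brain, and Klf9 -0.66 to 0.059 for testis over liver. With 3 libraries a group, Klf4 in liver rests on the fewest counts.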
